A study of Mus musculus with 2 samples.

Results

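The CC chemokine ligands described here are 10 genes, Ccl2, Ccl3, Ccl4, Ccl5, Ccl6, Ccl7, Ccl9, Ccl12, Ccl17 and Ccl22, read on an Affymetrix array of mouse marrow cells that had been kept with ID8 tumour cells. The members were the probe sets whose sole gene symbol in GEO's platform annotation is a listed gene. They came to 12 probe sets of 45037 on the array, 2 each for Ccl6 and Ccl9 and 1 for each of the other 8 genes, and 0 further probe sets listed a member among several symbols. The study had 2 samples with 1 array each. The first, called ID8-induced MDSC here, was marrow of C57BL/6 femurs grown with 5% FBS, with ID8 cells, a mouse ovarian epithelial tumour line that the labels also spell 1D8, for 4 days in the upper chambers of transwell plates with 24 wells. Its title speaks of tumour supernatant, while its treatment protocol speaks of co-culture at 50000 tumour cells to 2000000 marrow cells. The second was control bone marrow cells of the same strain, medium and bone. The labels gave both samples the phenotype CD11b+Gr1+, and neither the age, sex nor number of the mice, nor whether cells were sorted or pooled, is given in the sources used here. The product is called myeloid-derived suppressor cells (MDSC), immature neutrophil- and monocyte-like cells that restrain T cells.

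CC chemokines are small secreted proteins with a pair of adjacent cysteines near the N-terminus. They bind G-protein-coupled receptors and steer leukocytes along concentration gradients held on glycosaminoglycans. Ccl3, Ccl5, Ccl6 and Ccl9 bind Ccr1, a receptor of monocytes and neutrophils, and Ccl4 is a close relative of Ccl3. The monocyte chemoattractants Ccl2, Ccl7 and Ccl12 act mainly through Ccr2, which drives the exit of monocytes from marrow, and Ccl17 and Ccl22 act through Ccr4 on regulatory and type 2 helper T cells.

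No difference between the samples is given for any chemokine. Down the rows of the value table the control signals fell in order: within the values at or above its last value, and within those below it, 0 rises were counted from row to row, against 10622 and 11804 in the ID8-induced column. At the 12 member probe sets, taken by ID, the control value fell at all 11 steps, from 1671 to 135, while the ID8-induced signal rose at 5 of them. The control value beside a chemokine probe set was therefore not read as its level. With 1 array there is no replicate, no error and no test for any value below, and precision is limited by there being 1 array. In bulk RNA, fewer cells of a type and less RNA per cell cannot be told apart.

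Values are MAS5 signals on a linear scale. Counts over genes use the brightest probe set of each gene. A percentile gives the percentage of the array's probe sets that read lower, and it places a probe set among the others without ranking transcripts by abundance, because probe sets differ in how well they hybridise. The signal floor is the 40th percentile, 68.8, since no detection calls were used here, so a value above it does not by itself show expression. The array's median was 89.5, its 90th percentile 620 and its 99th percentile 4651. By brightest probe set, 71.3% of all 18193 named genes lay above the floor and 14.8% reached the 90th percentile. Counts for each list below are to be read beside these shares.

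Ccl3, Ccl4, Ccl5, Ccl6 and Ccl9, which are neighbours in the genome, stood at or above the 90th percentile on the brightest probe set of each gene, and 0 of 3 ligands of Ccr2 and 0 of 2 of Ccr4 did. This grouping was made with the values known and is a description. In all, 5 of 10 members reached the 90th percentile, where 14.8% of all 18193 named genes stood, and 2 of 10 reached the 99th, where 1.39% stood. On the dimmest probe set of each gene, 4 of 10 reached the 90th percentile, without Ccl6. With percentiles taken over genes, 4 of 10 did, without Ccl9. The 14.8% does not apply to these alternatives, for which the share of all genes was not counted. Above the floor were 9 of 10 genes, against 71.3% of all genes, and so were 11 of 12 probe sets, where the floor by its definition leaves 60% of all probe sets. The median percentile was 86.4 for the members and 61.4 for all named genes.

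**Figure D1:**
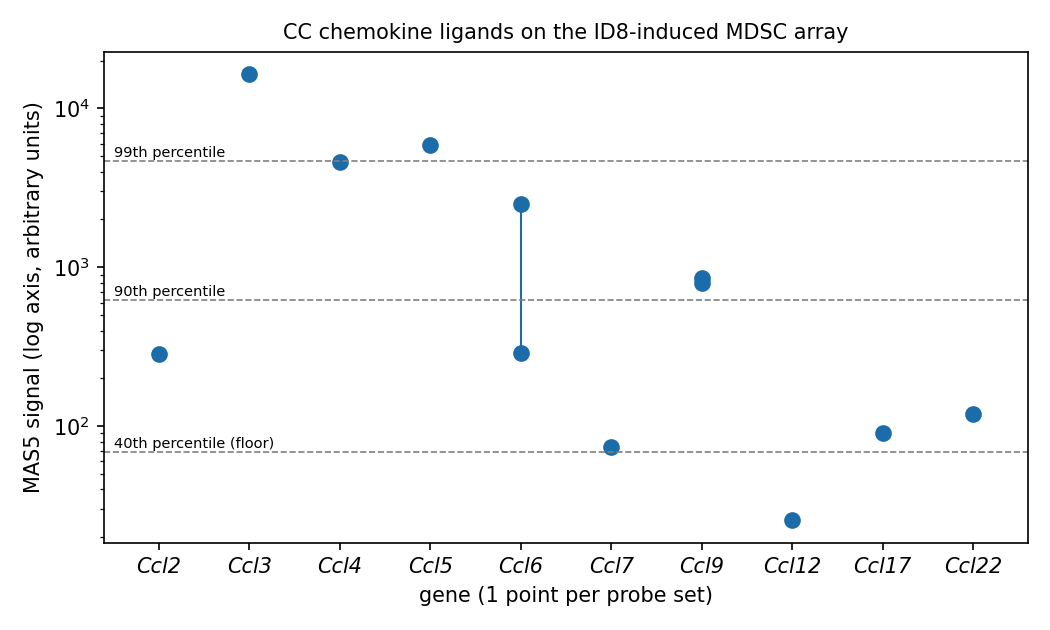
MAS5 signal (log axis) of each of the 12 probe sets of the 10 CC chemokine genes on the ID8-induced MDSC array. Each point is a probe set, and a line joins the probe sets of Ccl6 and those of Ccl9. Dashed lines mark the array's 40th (floor), 90th and 99th percentiles. Ccl3, at 16508, and Ccl5, at 5919, lie above the 99th percentile, and Ccl12, at 25.6, lies below the floor.

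Ccl3 (macrophage inflammatory protein 1 alpha), a recruiter of monocytes, neutrophils and T cells, read 16508. That probe set was the 13th brightest of the array, at percentile 99.97, and 240 times the floor. Counted by gene, 7 genes were brighter, S100a9, Lcn2, S100a8 and Ngp of the neutrophil list among them, at 24857, 21448, 20545 and 18326. Ccl4 (macrophage inflammatory protein 1 beta), the partner of Ccl3 in many myeloid responses, read 4627, at percentile 98.99 and just under the array's 99th percentile.

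Ccl5 (RANTES), a product of T cells, platelets and activated myeloid cells that attracts T cells and monocytes, read 5919, at percentile 99.36. Because T and NK cells also make Ccl5, their markers are given beside it. Of 8 measured T and NK cell markers, 6 lay above the floor, against 71.3% of all named genes. Of these 8 markers, 0 reached the 90th percentile, where 14.8% of all named genes stood. By brightest probe set they ranged from 62.3 to 277. Cd4 read 277 and 66.0 on its probe sets, and Cd8a between 21.2 and 197 over 5 probe sets. Cd3e read 135, Gzma 129, Nkg7 102 and Cd3d 83.2. Ncr1, at 65.2, and Cd3g, at 62.3, lay below the floor. The part of such cells in the Ccl5 signal was not tested.

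Ccl6 (C10) and Ccl9 (macrophage inflammatory protein 1 gamma) are rodent chemokines of myeloid cells that bind Ccr1. Ccl6 read 2499 on one probe set, at percentile 97.58, and 288 on the other, at percentile 80.53, a ratio of 8.68. The dimmer one, designed on an expressed sequence tag, carries the suffix by which Affymetrix marks probes shared between transcripts. Both Ccl6 readings lay above the floor, but just the brighter one reached the 90th percentile. Ccl9 read 860 and 793 on its probe sets, at percentiles 92.63 and 92.04, a ratio of 1.08. The Ccl9 readings, whose probe sets share a source sequence, therefore lay on the same side of each percentile line, and the Ccl6 readings did not.

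Ccl2 (monocyte chemoattractant protein 1), the main ligand of Ccr2, read 283, at percentile 80.27 and 4.12 times the floor. Ccl7 (monocyte chemoattractant protein 3) read 74.4, at percentile 43.06, which is 1.08 times the floor. Ccl12 (monocyte chemoattractant protein 5), a mouse ligand of Ccr2, read 25.6, at percentile 10.34, and was the sole member below the floor. The Ccr2 ligands thus spread from below the floor to just over the 80th percentile.

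Ccl22 (macrophage-derived chemokine) and Ccl17 (thymus and activation-regulated chemokine) are typically made by dendritic cells and alternatively activated macrophages. Ccl22 read 119, at percentile 59.74, and Ccl17 read 90.2, at percentile 50.24. The array's median lay at 89.5, so Ccl17 stood at the middle of all probe sets. Of 7 measured dendritic cell markers, 6 lay above the floor and 1, H2-Ab1, reached the 90th percentile, by the brightest probe set of each gene. The shares of all named genes were 71.3% and 14.8%. H2-Ab1 read 1531, 562 and 438, the lower readings being short of that percentile. Zbtb46 read 117, 64.3, 53.0 and 21.1, with 3 of 4 below the floor. Fscn1 read 302, 97.0, 39.5 and 32.6 on its probe sets, the dimmer readings of 39.5 and 32.6 being below the floor. Itgax read 106, Cd209a 100, Flt3 165 and Xcr1, below the floor, 32.2.

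By the brightest probe set of each gene, the strong and the weak members lay in different stretches of the genome. In the gene table of assembly GRCm38.p6, which gave the order and overlap of genes here, Ccl5, Ccl9, Ccl6, Ccl3 and Ccl4 follow each other on chromosome 11. On their brightest probe sets all 5 were at or above the 90th percentile, from percentile 92.63 to 99.97, while the dimmer probe set of Ccl6, at 80.53, lay level with Ccl2 of the next stretch. A second stretch of chromosome 11 holds Ccl2, Ccl7, Ccl11, Ccl12, Ccl8 and Ccl1, and 0 of these 6 reached the 90th percentile, from 10.34 to 80.27. Of its genes that are not members, Ccl11 (eotaxin) read 34.9, Ccl8 40.8 and Ccl1 83.3. On chromosome 8, Ccl22 and Ccl17 lie on either side of Cx3cl1 (fractalkine), whose 4 probe sets read between 27.9 and 135, and by brightest probe set these 3 spanned percentiles 50.24 to 63.51. E230016K23Rik, a non-coding RNA gene between Ccl9 and Ccl6, read 3.08 on its sole probe set, at percentile 0.12. Ccl3 and Ccl4 overlap by 755 bases in that gene table, and whether their probe sets share RNA was not tested.

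**Figure D2:**
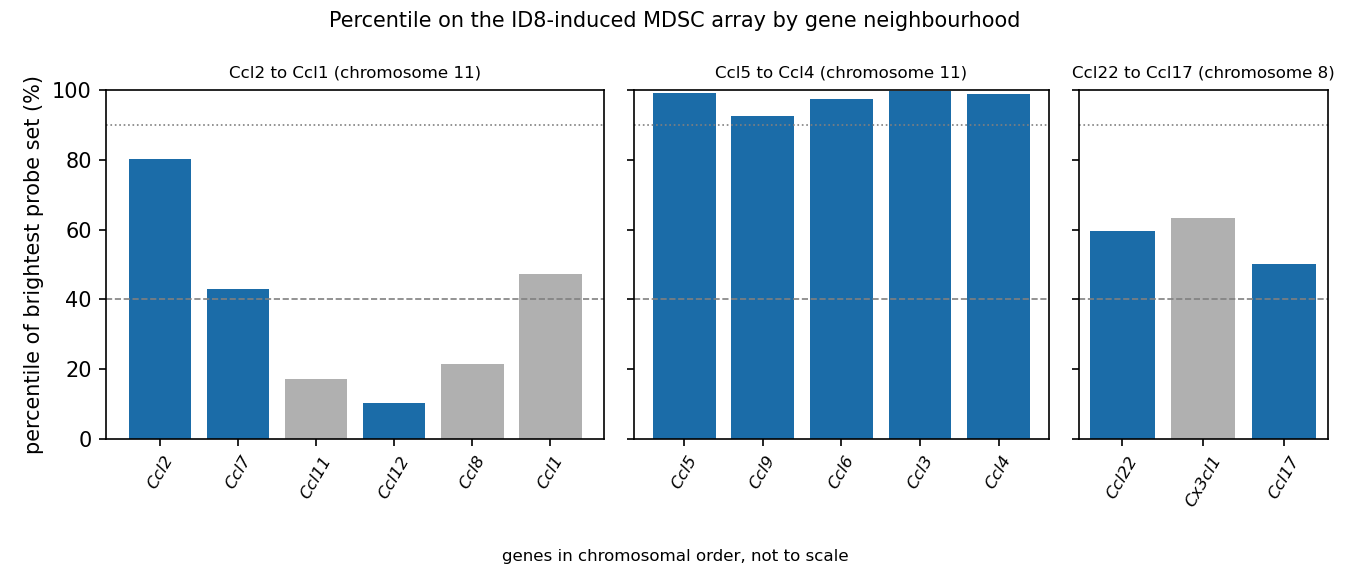
Percentile (%) of the brightest probe set of each chemokine gene on the ID8-induced MDSC array, in chromosomal order and not to scale, for the stretches Ccl2 to Ccl1 and Ccl5 to Ccl4 of chromosome 11 and Ccl22 to Ccl17 of chromosome 8; blue bars are members, grey bars other chemokines, and lines mark the 40th and 90th percentiles. All 5 brightest probe sets from Ccl5 to Ccl4 stand at 92.63 or higher, and the other genes at 80.27 or lower.

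The bases before the start sites of 6 of the 10 members were matched by symbol in the RefSeq promoter table of GRCm38.p6. These were Ccl3, Ccl6, Ccl9, Ccl12, Ccl17 and Ccl22. No promoter of Ccl2, Ccl4, Ccl5 or Ccl7 was searched, so the counts below say nothing of those genes. Ccl3 and Ccl12 are printed because they stood at the high and the low end of the members' signals, 250 bases before each start, 5′ to 3′ on the gene's strand. Ccl3 is at chr11:83649379-83649628 on the minus strand and Ccl12 at chr11:82101595-82101844 on the plus strand. Capitals mark a match to a pattern searched, of which Ccl3 had 0 and Ccl12 had 1.
Ccl3: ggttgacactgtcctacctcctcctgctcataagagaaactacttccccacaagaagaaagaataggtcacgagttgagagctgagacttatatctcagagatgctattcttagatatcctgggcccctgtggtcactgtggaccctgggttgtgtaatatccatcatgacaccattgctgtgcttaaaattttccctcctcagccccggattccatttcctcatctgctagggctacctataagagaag
Ccl12: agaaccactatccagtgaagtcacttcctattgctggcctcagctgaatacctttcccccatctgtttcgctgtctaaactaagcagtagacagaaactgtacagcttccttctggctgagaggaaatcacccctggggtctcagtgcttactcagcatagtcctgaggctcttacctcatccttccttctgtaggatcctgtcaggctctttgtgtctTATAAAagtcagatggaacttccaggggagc
The capitals in Ccl12 are TATAAA, the core of a TATA box, searched on the gene's strand and held by 2 of 6 member promoters (Ccl9 and Ccl12) and 7.59% of all 32851 promoters of that length. It lies 26 to 31 bases before the start in Ccl12 and 87 to 92 bases before it in Ccl9, as the search took any position. The other patterns were searched on both strands. A loose form of the NF-kappaB site, GGG and CC with any 5 bases between, was in 2 of 6 (Ccl9 and Ccl22) and 45.8% of all. TGANTCA, the AP-1 site, was in 1 of 6 (Ccl9) and 6.75% of all. TTCNNNGAA, the STAT site, and its STAT6 form with 4 bases between TTC and GAA, were each in 1 of 6 (Ccl17, as TTCTTTGAA and TTCTCTGGAA) and in 7.02% and 5.85% of all. A match is a description of letters and not a site in use.

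Ccl6 and Ccl9, neighbours that both gave strong signals, are printed because their start regions align. The last 100 bases before each start, both on the minus strand, are chr11:83593088-83593187 for Ccl6 and chr11:83578637-83578736 for Ccl9. Capitals mark bases placed opposite each other in the local alignment, which goes on past both starts.
Ccl6: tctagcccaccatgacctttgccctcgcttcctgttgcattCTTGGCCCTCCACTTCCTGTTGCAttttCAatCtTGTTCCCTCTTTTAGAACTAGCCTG
Ccl9: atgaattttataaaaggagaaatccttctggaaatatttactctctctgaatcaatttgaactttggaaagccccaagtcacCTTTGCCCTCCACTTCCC
Over windows of 300 bases, 67 bases aligned between these genes, of which 59 (88.1%) were identical. The stretch runs from 59 bases before to 15 after the Ccl6 start, and from 18 before to 49 after the Ccl9 start. Among the other 14 pairs of the 6 windows, the best local alignment held 9 to 19 bases.

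Ccr1, the receptor of Ccl3, Ccl5, Ccl6 and Ccl9, read 5013 and 1146 on its probe sets, at percentiles 99.10 and 94.41. Ccr2, on inflammatory monocytes, read 286, 268, 220 and 9.84 on its 4 probe sets, so 1 of them lay below the floor. Ccr4, the receptor of Ccl17 and Ccl22, read 54.9, below the floor.

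Of 10 measured CC receptors, 6 lay above the floor and 1, Ccr1, reached the 90th percentile, against 71.3% and 14.8% of all named genes. Ccr7, which guides cells to lymph nodes, read 234, and Ccr10, a receptor for the skin chemokine Ccl27a, read 205. Ccr9, the gut-homing receptor, read between 28.0 and 199 over 5 probe sets, and Ccr6, the receptor of Ccl20, read 99.6. The remaining 3 below the floor were Ccr8 at 35.8, Ccr1l1 at 35.7 and Ccr3, the eotaxin receptor of eosinophils, at 17.7.

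Atypical chemokine receptors bind chemokines without the usual G-protein signal. Of 5, 4 lay above the floor, against 71.3% of all named genes. Ccrl2, which binds the attractant chemerin, read 11654, at percentile 99.87. Ackr3, a scavenger of Cxcl12, read 278. Ackr4, a scavenger of the lymph node chemokines, read 252, 242 and 82.9 on its probe sets. Ackr2, the scavenger of inflammatory CC chemokines, read 71.4 on the brightest of its 3 probe sets, and the others, at 35.9 and 22.1, lay below the floor. Ackr1, the chemokine carrier of red cells and venules, was below the floor at 49.6.

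The CC ligands outside the members gave low signals. Of 8 measured, 4 lay above the floor and 0 reached the 90th percentile, against 71.3% and 14.8% of all named genes. The median percentile of these 8 ligands was 39.9. The brightest were Ccl28 at 123, Ccl25 at 110 (77.2 on its other probe set) and Ccl20, the ligand of Ccr6, at 103. The Ccl28 reading is the brightest of 3, the others being 39.9 and 10.6. The dimmest were Ccl8 at 40.8, Ccl11 at 34.9 and Ccl27a at 19.8.

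Genes that carry the receptor signal lay above the floor in 18 of 18 cases, and 9 reached the 90th percentile. Of all named genes, 71.3% lay above the floor and 14.8% reached the 90th percentile. Rac2, a haematopoietic small GTPase of migration, read 8430, Gnai2, the inhibitory G-protein subunit, 6716, Rac1 6604 and Gnb1 2779. Each of these 4 is the brightest of several probe sets, and the dimmest read 230, 3370, 13.5 and 34.3. Genes of transcription and mRNA stability were above the floor in 18 of 18 cases, 15 of them at the 90th percentile. Nfkbia (an NF-kappaB inhibitor that NF-kappaB induces) read 16872 on its brightest probe set and 4043 on its dimmest, Cebpb 10975 and 8995, Jun 6154 and 2190, and Nfkbiz 5444 and 1049.

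Cytokines that can induce CC chemokines lay above the floor in 8 of 10 cases and at the 90th percentile in 3. The shares of all named genes were 71.3% and 14.8%. Il1b read 6332, Tnf 4190, Il1a 1664 and Csf1 597, with 203 on the dimmest of its 4 probe sets. Il4, a classical inducer of Ccl17 and Ccl22, read 52.3, below the floor, and Il13, which shares a receptor chain with it, read 226. Of 6 proteases known to cut CC chemokines, 5 lay above the floor and 1, Mmp9 at 3517, reached the 90th percentile. Mmp9 read 2890 on its other probe set. Ctsg read 413, Elane 301 and Dpp4 between 22.1 and 103 over 4 probe sets.

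**Figure D3:**
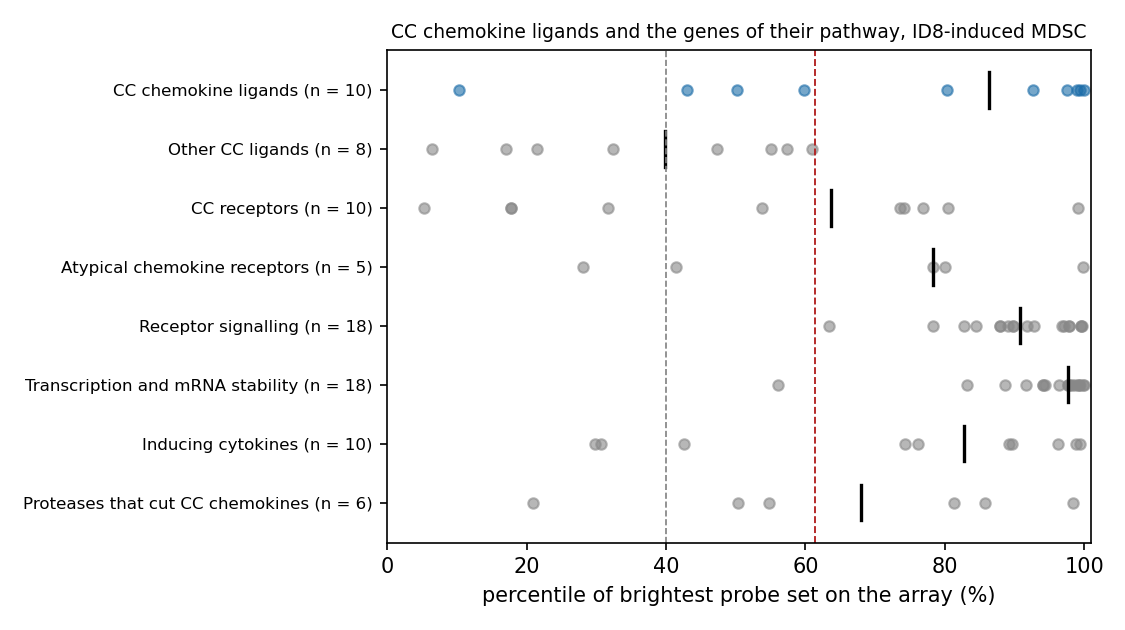
Percentile (%) of the brightest probe set of each gene on the ID8-induced MDSC array, for the 10 CC chemokine ligands (blue) and 7 lists of related genes (grey); black bars are list medians, the grey dashed line is the floor and the red dashed line the median of all named genes, 61.4. The members run from 10.34 to 99.97, and the 8 other CC ligands all lie at 60.89 or lower.

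Markers of the labelled cells and of others that could make chemokines were read on the same array. Beside each count here, 71.3% of all named genes lay above the floor and 14.8% reached the 90th percentile. A marker above the floor does not by itself show that its cells were present. Itgam, which encodes CD11b, read 2375, and the Ly6 genes of the Gr1 antigen are not analysed here. Neutrophil markers reached the 90th percentile in 9 of 9 cases, from 2569 to 24857. Monocyte and macrophage markers lay above the floor in 7 of 11 cases and reached the 90th percentile in 5, from 17.1 to 10143. Among them, Cd14 read 10143, Mpeg1 5515, Csf1r 4403 (1126 on its dimmest probe set) and Adgre1 (F4/80) 1443. C1qb and Fcgr1 lay above the floor on just their brightest probe sets. Mertk, Mrc1, C1qa and Cd163 lay below it. By brightest probe set, B cell markers were above the floor in 4 of 4 cases (78.1 to 261), mast cell and basophil markers in 3 of 6 (20.2 to 254) and eosinophil markers in 2 of 4 (18.5 to 445). Epithelial and mesothelial markers, which ID8 cells would carry, were above it in 6 of 9 cases (21.6 to 159) and stromal markers in 2 of 5 (48.0 to 270.02), and 0 markers of these 5 lists reached the 90th percentile. Of the genes counted above the floor in these lists, dimmer probe sets of Ms4a1, Pax5, Epcam, Krt8, Upk3b, Col1a1 and Col1a2 lay below it. The dimmer probe sets of Kit and Tpsb2 did not. Which of these cells the chemokine RNA came from was not tested.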

How the data were processed

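Total RNA of 2 samples was labelled with biotin and hybridised to 1 Affymetrix array each, from 6 ug of RNA per the labels' protocols. Per the submitters' processing notes, the authors used MAS5, and the deposited values are signal intensity on a linear scale. Neither the version nor the scaling target of MAS5 is given in the sources used here, and no detection calls were used. No scaling was added. Gene symbols came from GEO's platform annotation (34945 with 1 symbol, 932 with several, 9160 with none), and a gene was read by its brightest probe set. The planned floor was the 40th percentile of the ID8-induced array. The rule for named genes took every member, every CC receptor and atypical receptor, the 3 brightest and 3 dimmest other CC ligands, and up to 4 genes of each other list; Il4, Il13, the neighbouring genes and the cell type markers named were added after their values were seen. The members and lists were chosen with earlier results of these data known. The code for percentiles and for the count of rises was tested on the ID8-induced values and on altered copies of them. Promoters were aligned locally with Biopython 1.88, under Python 3.11.15, numpy 2.4.6 and pandas 2.3.3. The promoter search was chosen after the data were seen. Alternatives were other floors, other summaries of a gene's probe sets and percentiles over genes, the last 2 also for the count at the 90th percentile. Some receptors of these ligands are not reported here.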

Additional observations from a re-analysis of the deposited data

Results flagged for a closer look

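The control column is a measured column that gives no chemokine level here. At the 12 member probe sets taken by ID, its value rose at 0 of 11 steps, and the ID8-induced signal at 5. Its values there ran from 1671 to 135. The cause of this order was not tested.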

How the results depend on the processing

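For the 8 members with 1 probe set the choice of probe set cannot move a value, and taking in probe sets of several symbols added 0. With the mean log2 signal, the dimmest probe set or probe sets without a suffix letter, 9 of 10 genes lay above the floor, where just Ccl6 and Ccl9 could have moved. With the floor at the 20th percentile (38.8) 9 genes and 11 probe sets lay above it, and at the 60th (120) 6 genes and 8 probe sets, Ccl22, Ccl17 and Ccl7 then falling below. Without suffixed probe sets, 10 of 11 lay above the floor. The share of all named genes was not counted at other floors or on other summaries. These counts therefore show how the members moved and are not set against all genes. The Ccl6 signal moved from 2499 to 849 with the mean over its probe sets (1 was added before log2) and to 288 on the dimmest. As a share of named genes with a lower signal, in place of probe sets, the percentile was 72.1 for Ccl2, 48.1 for Ccl22, 38.3 for Ccl17 and 31.5 for Ccl7, and it moved by 5 points or less for the other 6 members. Among these, Ccl9 moved from 92.63 to 89.1 and so below the 90th percentile. The count at the 90th percentile, 5 of 10, was then 4, and it was 4 on the dimmest probe sets and 5 with the mean over probe sets. These alternatives for that count were chosen after seeing the data, and the share of all named genes was not counted for them. No paired analysis was possible because each group had 1 array. With no replicate, the error of each signal is unknown.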
